A study of Mus musculus with 18 samples.

Results

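The comparison described here set cells treated with an siRNA against Chst7 (siChst7) against cells treated with a control siRNA (siControl), 3 days after the reprogramming factors had been switched on. It used 6 of the 18 libraries of the series, 3 per group, and 13802 of the 24514 genes listed in the count table passed the filter on low counts and were tested. All libraries came from the line iMGT-Myh6-eGFP-MEF, mouse embryonic fibroblasts in which doxycycline induces Mef2c, Gata4 and Tbx5 together and in which green fluorescent protein reports the activity of the cardiac gene Myh6. Cells were plated in small wells at 1000 cells per well and transfected with one of the siRNAs. On the next day, named day 0, doxycycline at 1 µg/mL was added to the cells that were later taken at day 1 and day 3, while the day 0 samples were taken without doxycycline. Each sample pooled 40 wells of this 1 line, and samples of the same group are described as biological replicates. P-values therefore measure the spread between such pools, estimated for each gene over all 18 libraries of the series. The labels name 1 siRNA condition against Chst7, so that an effect of losing Chst7 and any other effect of that siRNA cannot be told apart here.

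The product of Chst7 works in the Golgi, where it transfers sulfate onto chondroitin chains, the long sugar chains carried by proteoglycans of the cell surface and the extracellular matrix. Mef2c, Gata4 and Tbx5 are cardiac transcription factors which, when expressed together in fibroblasts, turn on genes of the heart muscle in some of the cells and lower genes of the fibroblast state. Interferon-stimulated genes, which take up much of what follows, are targets of a transcription factor complex that binds a short promoter element, the interferon-stimulated response element (ISRE), and their products restrict viruses or present antigen.

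At day 3 the siControl libraries held 33129954 to 43905193 counts and the siChst7 libraries 30590742 to 41435639. The 3 siControl libraries were close to each other: chi-square divided by its degrees of freedom was 3.49 to 4.13 for their pairs. The siChst7 libraries spread more widely, with values of 22.6 between replicates 1 and 3, 51.4 between replicates 2 and 3 and 59.2 between replicates 1 and 2. No pair in the other groups of the series exceeded 15.6. As the spread behind the p-values was estimated over all groups together, it can understate that of these siChst7 libraries. With only the 6 day 3 libraries in the fit, 4683 genes were called, beside 6165 with all 18. Replicate 2 of siChst7 stood apart from the other siChst7 libraries, with the smallest shift of short genes away from siControl. Ribosomal RNA precursor (Rn45s) took 1.96%, 0.605% and 0.654% of the counts in siChst7 replicates 1, 2 and 3 and 0.399% to 0.542% in siControl. It belongs to a list of 10 RNAs kept as a sign of RNA quality, of which 7 were tested, and all 7 were called higher in siChst7, with a summed level of 7130 to 21000 CPM (the counts of a gene scaled by library size with TMM) against 5010 to 6160 in siControl. Their part in the results was not tested.

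The labelled cell type was checked against its markers. Of 8 fibroblast markers, Vim (4890 to 6050 CPM over the 6 libraries), Col1a1 and Col1a2 were abundant, Pdgfra, Ddr2 and Dcn were present, and Thy1 (0 to 0.319 CPM) and Lum (0 to 0.0459 CPM) were at or near 0. Vim, Col1a1 and Pdgfra were called lower in siChst7 and Dcn higher (0.49 ± 0.14), and the summed markers came to 9930 to 10500 CPM in siControl and 8920 to 9500 CPM in siChst7. Summed macrophage and leukocyte markers came to 28.2 to 30.1 CPM in siControl and 26.5 to 30.7 CPM in siChst7, with Tyrobp at 0 in all 6 libraries and none of 6 tested markers called. Summed endothelial markers came to 3.16 to 4.07 CPM and 3.57 to 4.36 CPM, with Cldn5 at 0 and 1 of 4 tested markers called higher, Cdh5, at no more than 0.116 CPM, a call lost without siChst7 replicate 1 or 2 or siControl replicate 1 or 2. Some sums did not overlap between the groups: epithelial markers came to 0.734 to 1.29 CPM in siControl and 2.0 to 2.42 CPM in siChst7, adipocyte markers to 2.78 to 4.15 and 5.0 to 5.35 CPM, cartilage and bone markers to 6.3 to 7.4 and 7.78 to 8.05 CPM, and neural markers to 9.77 to 11.4 and 7.49 to 8.54 CPM. Their part in the results was not tested. In RNA from whole wells, fewer cells of a type and less of an RNA per cell cannot be told apart, and this holds for every group below.

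Chst7 itself (2195 bases, X chromosome, 20058963 to 20099991 in GRCm38) was the gene with the largest fall among genes with a mean of at least 5 CPM. Its level was 2.96, 1.87 and 1.64 CPM in the siChst7 libraries and 25.6, 23.8 and 25.9 CPM in the siControl libraries. The groups lay far apart, and siChst7 cells kept 8.59% of the siControl level. The log2 fold change was −3.54 ± 0.15 (SE, n = 3 and 3), with an adjusted p of 7.07e-13 in edgeR's quasi-likelihood test. The residual level was higher than on the other days: siChst7 libraries held 0.238, 0.611 and 0.465 CPM at day 0 and 0.95, 0.581 and 0.733 CPM at day 1. As a difference on the log2 scale, the knockdown at day 3 was weaker by 1.93 than at day 0 (edgeR interaction term, adjusted p = 1.68e-05) and weaker by 2.10 than at day 1 (adjusted p = 1.58e-05).

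The delivered factors were lower in siChst7 at day 3. Mef2c stood at 250, 266 and 231 CPM in siChst7 and at 326, 321 and 320 CPM in siControl. Gata4 stood at 355, 375 and 326 CPM against 463, 448 and 440 CPM, and Tbx5 at 588, 621 and 565 CPM against 745, 740 and 746 CPM. The groups did not overlap for any of them, and the falls were of similar size: −0.37 ± 0.05 for Mef2c, −0.36 ± 0.05 for Gata4 and −0.33 ± 0.05 for Tbx5 on the log2 scale (SE; edgeR adjusted p of 2.33e-06, 1.1e-05 and 1.01e-05). At day 0, without doxycycline, their log2 fold changes were −0.00, −0.13 and −0.13, of which that of Tbx5 was called (adjusted p = 0.0495). At day 1 none of them had been called, with log2 fold changes of 0.13, 0.09 and 0.10. The median day 3 log2 fold change of the 3 factors was −0.36. It was −0.32 with the trend in gene length removed, and −0.23 with trends in length and GC content removed, as described below. All 3 stayed called lower in both of these fits. The counts do not separate delivered copies from the cells' own.

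**Figure D1:**
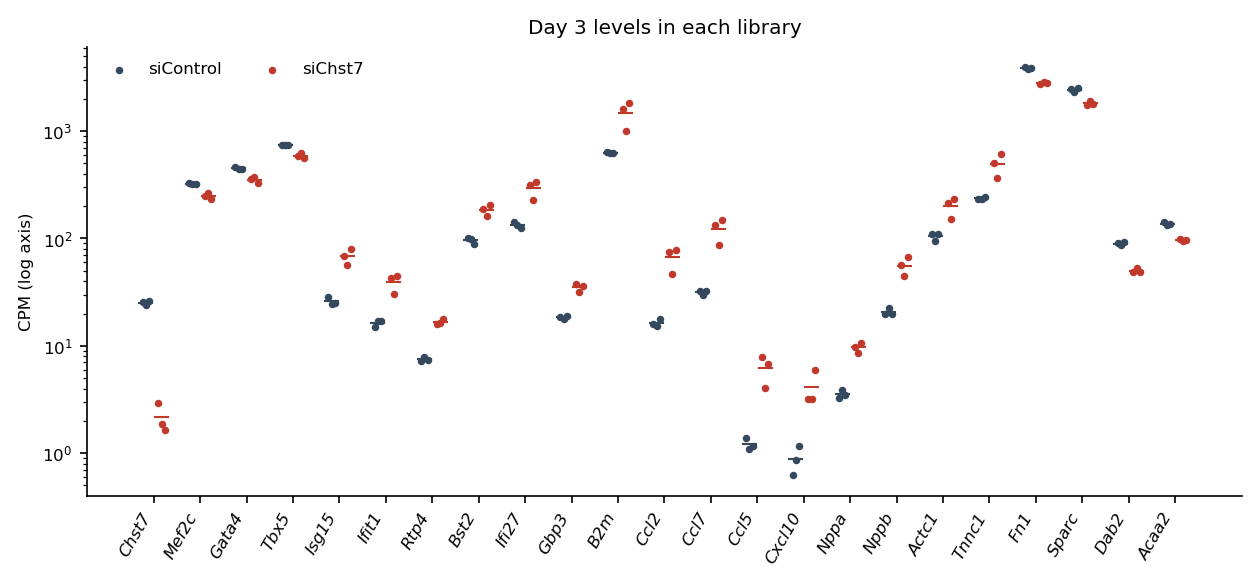
Level of 23 genes in each day 3 library, in CPM on a log axis, for siControl (dark) and siChst7 (red). Points are single libraries, from replicate 1 on the left to replicate 3 on the right, and bars are group means. Chst7 fell from about 25.1 to 2.16 CPM, the delivered factors fell slightly, and interferon and chemokine genes rose with siChst7 replicate 2 often the lowest of its group.

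Across all genes, 6165 of 13802 (44.7%) were called in edgeR at an adjusted p below 0.05, 3182 (23.1%) higher and 2983 (21.6%) lower in siChst7. Most of these differences were small: 79.2% of the called genes differed by less than 1.5-fold, and the median size was 0.30 on the log2 scale. Past 2-fold, 395 genes (2.86%) were higher and only 25 (0.181%) lower, Chst7 among the latter. The 3 siChst7 libraries did not contribute equally to this. Without siChst7 replicate 2 the counts past 2-fold were 593 higher and 31 lower, and without siChst7 replicate 3 they were 216 and 35.

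Short genes ran higher in siChst7. Of the 1094 tested genes shorter than 1000 bases, 54.7% were called higher and 1.9% lower, with a median log2 fold change of 0.55, and they held 171 of the 395 genes that rose past 2-fold. The median fell to 0.13 for genes of 1000 to 2000 bases, to −0.01 for 2000 to 4000 bases and to −0.08 both for 4000 to 8000 bases and above 8000 bases, where 9.6% were called higher and 30.7% lower. Among the most abundant short genes, Tmsb4x, which binds actin monomers, rose from 869, 848 and 870 CPM in siControl to 2040, 1330 and 2400 CPM in siChst7. Ppia, the peptidyl-prolyl isomerase often used as a reference gene, rose from 877, 895 and 853 CPM to 1900, 1310 and 2140 CPM. The long gene Fn1, which encodes fibronectin, fell from 3930, 3820 and 3890 CPM to 2740, 2890 and 2800 CPM.

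The trend was seen in the siChst7 libraries at day 3. The median difference of the shortest genes from siControl of the same day, on the log2(CPM + 1) scale, was 0.37, 0.16 and 0.42 in siChst7 replicates 1, 2 and 3 at day 3. It was 0.08, 0.02 and 0.06 at day 1, and 0.03, 0.03 and −0.11 at day 0, where replicate 3 leaned the other way. Differences followed GC content as well: over 13456 genes with a value the rank correlation of the log2 fold change with GC content was −0.28, beside −0.33 with length over 13802 genes, while length and GC content were correlated at −0.17. These are descriptions across genes of the same libraries. Within the shortest bin, the median ran from 0.77 among the genes with the lowest GC content to 0.31 among those with the highest, taking 4 equal groups, and within genes of 2000 to 4000 bases from 0.19 to −0.09.

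**Figure D2:**
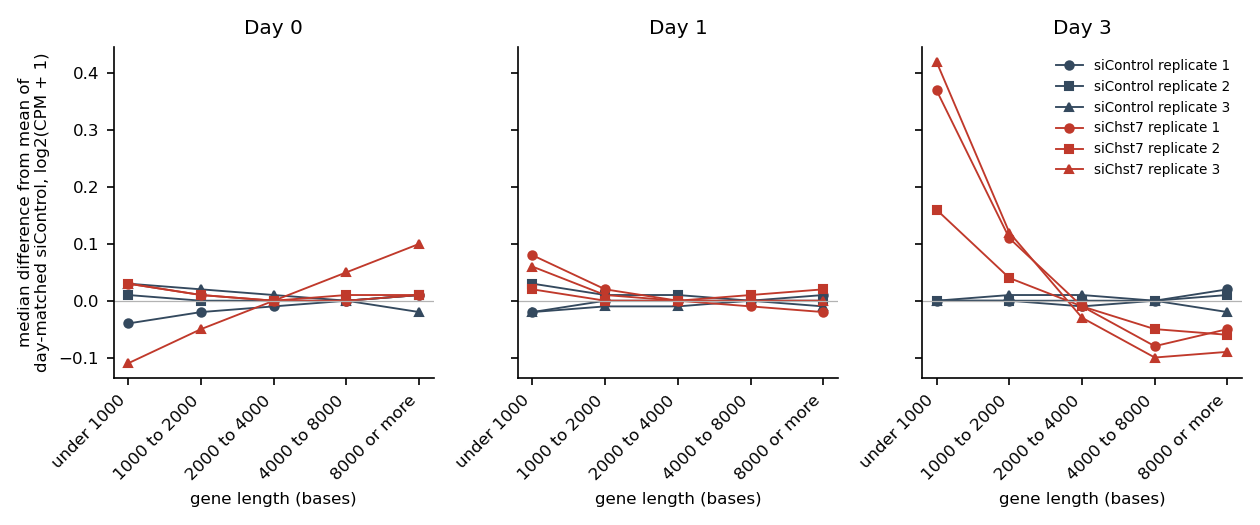
Median difference of single libraries from siControl of the same day, in log2(CPM + 1), for genes grouped by length in bases, at days 0, 1 and 3. Red lines are siChst7 and dark lines siControl libraries, each siControl library being compared with the other siControl libraries of its day. At day 3 the shortest genes lie 0.16 to 0.42 above siControl in the siChst7 libraries, least in replicate 2; at days 0 and 1 the siChst7 values for them lie between −0.11 and 0.08.

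The main gene groups below are therefore given with the counts from 2 further fits, in which the length trend of each library, or its trends with both length and GC content, was removed as an offset. The second was chosen after the data had been seen. With the length offset 2562 genes (18.6%) were called higher and 3582 (26.0%) lower, and with both offsets 2443 (17.7%) and 3092 (22.4%). These shares, and 23.1% higher and 21.6% lower without offset, are those to set beside the day 3 counts of each list below. Genes that rose past 2-fold numbered 195 with the length offset and 159 with both. Such offsets also remove any change that short genes, or genes poor in GC, share as such.

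**Figure D3:**
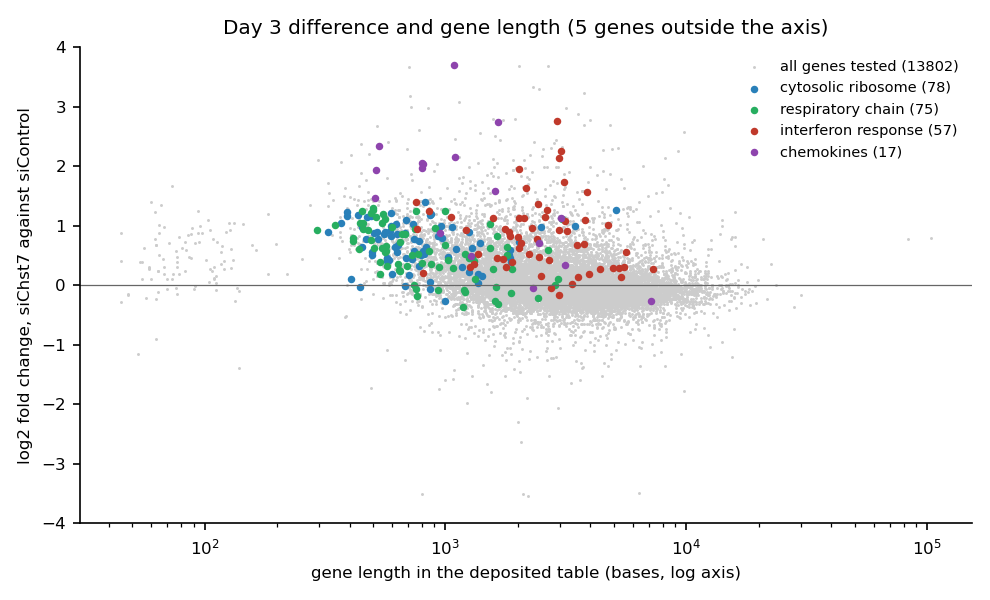
Log2 fold change of siChst7 against siControl at day 3 for 13802 tested genes by gene length on a log axis. Ribosomal protein (blue) and respiratory chain genes (green) lie among the short genes, while interferon response genes (red) and chemokines (purple) spread over the lengths; 5 genes lie outside the vertical axis.

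Interferon-stimulated genes rose together. Of 57 tested genes of the interferon list, 49 were called higher and 1 lower in edgeR, with a median log2 fold change of 0.78 beside 0.01 for all tested genes, and 52 had groups that did not overlap, beside 49.1% of all tested genes. The count was 48 higher and 1 lower with the length offset (median 0.69) and 49 and 0 with both offsets (median 0.64). Leaving out any 1 of the 6 libraries left 44 to 49 genes called higher. The genes of this list were not short as a group, with a median length of 2455 bases beside 2881.5 bases for all tested genes, and in the bin of 2000 to 4000 bases 26 of 31 were called higher with a median of 0.92.

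The ISRE was frequent in their promoters. Among 42 of the 57 genes with a window in the RefSeq table (GRCm38.p6, 250 bases before to 50 after the start), 22 (52.4%) held its core word (GAAA, any 2 bases, GAAA) on either strand, against 3.7% of the 10511 tested genes with a window and 4.0% of all 27025 genes in that table. All 22 were called higher, with a median of 0.70 and a range of 0.27 to 2.26, as were 15 of the 20 without the word, with a median of 0.45. The GAS word (TTC, any 3 bases, GAA), which can overlap the ISRE word, was in 23.8% of the list and in 8.3% of tested genes. Over all tested genes, 34.5% of those with the ISRE word were called higher and 14.8% lower. Among the 363 of them outside the interferon list the shares were 30.6% and 15.7%, beside 22.7% and 22.4% of genes without it. With both offsets the 363 genes were called higher for 23.4% and lower for 19.6%, with a median of 0.01. Genes without the ISRE word were then at 17.4% and 22.9%. Genes with the GAS word were called higher for 24.3% and lower for 20.7% without offset, beside 23.1% and 21.6% of all tested genes. The promoter stretches of 4 genes of the list are printed to show the element, with each copy of the word, read on either strand, in capitals; they are 5′ to 3′ on the gene's strand from RefSeq. Isg15 spans chr4:156200832-156200951 (minus strand), Ifit1 chr19:34640730-34640849 (plus strand), Gbp3 chr3:142559944-142560063 (plus strand) and B2m chr2:122147493-122147612 (plus strand).
Isg15: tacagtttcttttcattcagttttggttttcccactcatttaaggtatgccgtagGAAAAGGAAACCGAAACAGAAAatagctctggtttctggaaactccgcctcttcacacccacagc
Ifit1: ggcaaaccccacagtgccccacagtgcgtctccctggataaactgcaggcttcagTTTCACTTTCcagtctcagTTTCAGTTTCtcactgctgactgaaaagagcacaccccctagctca
Gbp3: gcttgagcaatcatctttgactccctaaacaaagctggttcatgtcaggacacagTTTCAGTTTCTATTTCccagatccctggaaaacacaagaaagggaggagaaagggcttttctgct
B2m: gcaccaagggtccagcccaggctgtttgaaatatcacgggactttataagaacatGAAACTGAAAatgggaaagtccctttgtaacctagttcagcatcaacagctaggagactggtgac
Isg15 held 3 overlapping copies, Ifit1 and Gbp3 2 each and B2m 1. A further RefSeq window of Gbp3 held 0 copies, as did the windows of Irf7 and Ifi44, which are not printed. Ifit1, Gbp3 and B2m were picked for printing after their values had been seen.

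Effector genes differed in how far they rose. Isg15, a ubiquitin-like protein that is joined to other proteins in infected cells, stood at 69.4, 56.1 and 79.1 CPM in siChst7 and at 28.2, 24.4 and 25.3 CPM in siControl. Every siChst7 library was above every siControl library, at a log2 fold change of 1.39 ± 0.10 (SE; edgeR adjusted p = 2.3e-09) that was 0.93 with both offsets. Ifit1, which binds foreign RNA ends, rose from 14.9, 17.0 and 16.9 CPM to 43.1, 30.2 and 45.1 CPM, a log2 fold change of 1.27 ± 0.11 (adjusted p = 2.38e-08). Gbp3, a guanylate-binding GTPase, rose from 18.7, 17.8 and 19.0 CPM to 37.5, 31.9 and 35.9 CPM (log2 fold change 0.92 ± 0.08, adjusted p = 4.13e-08). Rtp4 rose by 1.13 ± 0.09 on the log2 scale, Ifi27 by 1.14 ± 0.09 and Bst2, which tethers budding viruses to the cell, by 0.94 ± 0.08, and siChst7 and siControl libraries did not overlap for any of these. Ifi44 showed the largest rise of the list at 2.76 ± 0.29, at the low level of 1.48 to 1.89 CPM against 0.226 to 0.276 CPM. At the lower end, Oas1a rose by 0.39 ± 0.10, Herc6 by 0.29 ± 0.07, Parp14 by 0.27 ± 0.10 and Ifit2 by 0.19 ± 0.06, and Parp9 was not called (0.13 ± 0.06). The calls of Herc6 and Ifit2 were lost with both offsets, and Parp9 was then called (0.15).

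Antigen presentation genes were part of it. B2m, the invariant chain of MHC class I, was the most abundant of the interferon genes named here, at 1610, 998 and 1850 CPM in siChst7 and 638, 630 and 620 CPM in siControl. Its log2 fold change of 1.24 ± 0.12 (edgeR adjusted p = 1.38e-07) became 0.51 with both offsets (adjusted p = 7.87e-08). H2-K1, a class I heavy chain, rose less, from 116, 115 and 108 CPM to 152, 162 and 150 CPM (0.46 ± 0.05, adjusted p = 1.85e-07). H2-D1 rose by 0.44 ± 0.07. Tap1, which carries peptides into the endoplasmic reticulum, was the 1 member called lower, at −0.17 ± 0.06 (adjusted p = 0.0335), a call lost with both offsets. Tapbp was not called, at 118, 132 and 116 CPM against 128, 123 and 125 CPM.

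The signalling genes upstream differed from their targets. None of 10 interferon ligand genes had more than 4 reads in all 6 libraries together, and 5 had 0 (this set of signalling genes was drawn up after the list's values were seen). For a gene with 0 reads, 3 counts is the limit that such a total allows, which covers counting error only. Of 7 receptor and Janus kinase genes, none was called higher and 4 were called lower. Ifnar1, a chain of the type I receptor, stood at 81.4, 83.0 and 77.9 CPM against 99.1, 95.9 and 97.9 CPM in siControl, a fall of 0.27 on the log2 scale. Of 6 transcription factors, 4 were called higher: Irf7 at 0.83 ± 0.13, Irf9 at 0.42 ± 0.08, Stat2 at 0.27 ± 0.06 and Irf3 at 0.23 ± 0.05. Irf1 was not called. Of 9 sensors and adaptors of foreign nucleic acid 5 were called higher, led by Zbp1 at 1.63 ± 0.19 and Dhx58 at 0.78 ± 0.13, while Mavs, Tlr3, Eif2ak2 and Tmem173 were not called.

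Chemokine genes rose with them. Of 17 tested chemokine genes 12 were called higher and 1 lower in edgeR, with a median of 1.59. With the length offset 11 were called higher and 1 lower (median 1.18), and with both offsets also 11 and 1 (median 1.21). Ccl2 and Ccl7, neighbouring genes on chromosome 11 whose products attract monocytes, were the most abundant of those called higher. Ccl2 (806 bases) stood at 74.7, 46.9 and 78.8 CPM in siChst7 and at 15.9, 15.2 and 17.7 CPM in siControl, a log2 fold change of 2.03 ± 0.13 (adjusted p = 4.79e-10; 1.39 with both offsets). Ccl7 (799 bases) stood at 135, 87.3 and 149 CPM against 32.6, 29.6 and 32.2 CPM, at 1.97 ± 0.12 (adjusted p = 4.73e-10; 1.28 with both offsets). Replicate 2 was the lowest siChst7 library for both genes and still lay well above siControl.

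Less abundant chemokines rose by different amounts. Ccl5, which attracts T cells, stood at 7.84, 4.03 and 6.80 CPM against 1.38, 1.10 and 1.17 CPM (2.34 ± 0.21, edgeR adjusted p = 4.62e-08). Cxcl10, itself an interferon target, stood at 3.19, 3.17 and 5.96 CPM against 0.621, 0.869 and 1.17 CPM (2.15 ± 0.29, adjusted p = 4.19e-06). Ccl17 stood at 9.88, 6.93 and 11.8 CPM against 2.71, 1.99 and 2.73 CPM (1.94 ± 0.28). Others rose less: Ccl9 by 1.13 ± 0.18, Cxcl1 by 0.88 ± 0.18, Cxcl16 by 0.71 ± 0.19 and Cx3cl1 by 0.34 ± 0.09. Cxcl12, which keeps stem cells in their niche and is the most abundant of these genes, was the 1 called lower, at 266, 271 and 264 CPM against 327, 302 and 330 CPM. Its fall of 0.26 shrank to 0.10 with both offsets.

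For 2 of the strongest chemokine genes, day 3 levels remained below those before induction. In siControl, Ccl2 went from 795, 874 and 890 CPM at day 0 to 19.1, 21 and 21.4 CPM at day 1. In siChst7 it stood at 995, 1020 and 906 CPM at day 0 and at 44.1, 40.9 and 44.0 CPM at day 1, where the difference was already called (log2 fold change 1.07, edgeR adjusted p = 2.98e-06). The knockdown difference in Ccl2 at day 3 exceeded that at day 0 by 1.84 and that at day 1 by 0.96 on the log2 scale. For Ccl7 the corresponding values were 1.51 and 1.32.

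Other inflammatory genes were mixed. Of 42 tested cytokine and NF-kappaB genes 14 were called higher and 5 lower, with a median of 0.12. The counts were 13 and 7 with the length offset and 15 and 3 with both offsets, and the 5 lower became 2 without siControl replicate 2 and 3 without siControl replicate 3. Ptgs2, the inducible prostaglandin synthase, rose from 34.0, 38.4 and 35.1 CPM to 69.5, 60.4 and 71.1 CPM (0.90 ± 0.06, edgeR adjusted p = 2.3e-09). The acute phase genes Saa3 (1.42 ± 0.11) and Hp (1.16 ± 0.09) and the complement gene C3 (0.61 ± 0.06) rose as well, Il6 by 1.80 ± 0.37 at levels under 1 CPM. Of the NF-kappaB subunits, Rela, Nfkb1, Relb and Nfkb2 were not called and Rel was called lower at −0.22, while with both offsets Nfkb2 was called higher at 0.12. Immediate early genes were largely uncalled, with 2 higher and 6 lower of 29, 1 and 6 with the length offset and 6 and 6 with both, and the 6 lower became 2 without siControl replicate 1 and 3 without siControl replicate 2 or siChst7 replicate 1.

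The interferon difference grew over the days. At day 0 only 7 of the 57 interferon genes were called higher and 5 lower (median −0.04), where 13.9% of all genes were called higher and 13.5% lower. At day 1 the list had 41 higher and 0 lower (median 0.40), where 8.86% of all genes were called higher and 8.72% lower. The change in effect from day 0 to day 3 was called for 41 upward and 2 downward, beside 5356 (38.8%) of all tested genes called either way (53.3% of them upward, but 35.7% when scaled by library totals alone), and that from day 1 to day 3 for 19 and 2, beside 3926 (28.4%), of which 53.8% were upward and 41.9% with the length offset. Isg15 was 0.49 lower in siChst7 than in siControl at day 0, 0.49 higher at day 1 and 1.39 higher at day 3.

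**Figure D4:**
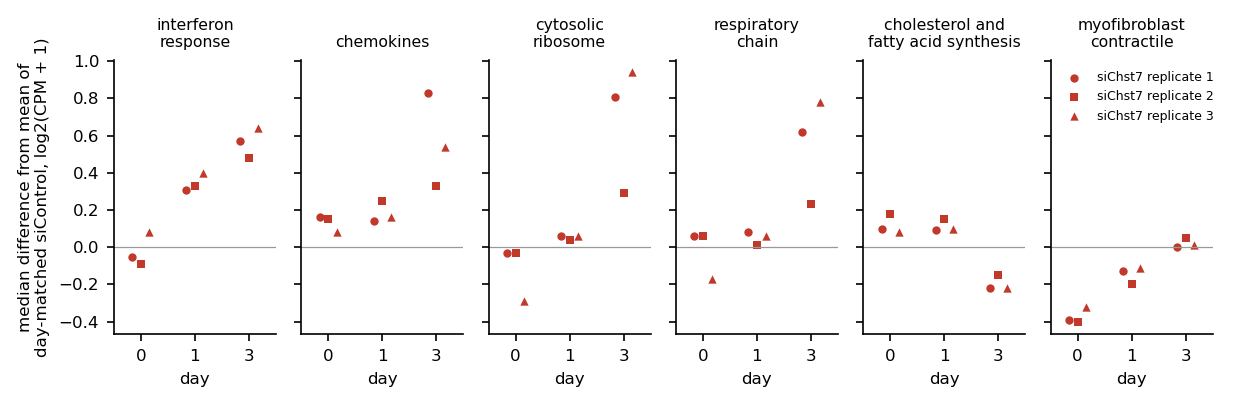
Median difference of each siChst7 library from the mean of siControl of the same day over the tested members of 6 gene lists, in log2(CPM + 1), at days 0, 1 and 3; circles, squares and triangles are replicates 1, 2 and 3. The interferon median lies at 0.48 to 0.64 in the day 3 libraries and near 0 at day 0, whereas the ribosomal median lies at 0.29 to 0.94 at day 3, lowest in replicate 2, at 0.04 to 0.06 at day 1, and at −0.29 in replicate 3 of day 0.

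Most genes of the ribosome and of the respiratory chain rose, and with the offsets fewer were called higher and more lower. Of 78 cytosolic ribosomal protein genes 67 were called higher and 1 lower (median 0.73). Their median length was 730 bases, and the counts became 42 higher and 16 lower with the length offset and 45 and 14 with both offsets (median 0.17 each), beside 18.6% higher and 26.0% lower of all genes in the first and 17.7% and 22.4% in the second of these fits. In each length bin their median lay above that of all genes: 0.80 beside 0.55 for 59 genes under 1000 bases, 0.48 beside 0.13 for 15 genes of 1000 to 2000 bases, of which 12 were called higher, and 0.98 beside −0.01 for 3 genes of 2000 to 4000 bases. In single siChst7 libraries the median difference was 0.81, 0.29 and 0.94. Rpl36a, of the large subunit, stood at 314, 240 and 369 CPM against 140, 139 and 135 CPM in siControl (1.16 ± 0.09, edgeR adjusted p = 1.17e-08), and 0.37 of that was left with both offsets. Rplp0, a stalk protein, was among the 10 members not called, at 1620, 1360 and 1650 CPM against 1480, 1510 and 1510 CPM.

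Of 75 nuclear-encoded subunits of the respiratory chain 60 were called higher and 6 lower (median 0.57). With the length offset these became 32 and 24 (median 0.09) and with both offsets 32 and 23 (median 0.03). By length, their median was 0.70 beside 0.55 for 48 genes under 1000 bases, 0.35 beside 0.13 for 22 genes of 1000 to 2000 bases, of which 14 were called higher, and 0.11 beside −0.01 for 5 genes of 2000 to 4000 bases. Uqcrb, a subunit of complex III, rose from 57.8, 58.8 and 60.8 CPM to 151, 110 and 176 CPM (1.30 ± 0.10, edgeR adjusted p = 1.05e-08), and 0.25 remained with both offsets. Cox7a2, a subunit of cytochrome oxidase, kept more of its rise, 0.76 of 1.25. Sdha, of complex II, was not called, at 213, 212 and 211 CPM against 210, 214 and 214 CPM. Proteasome genes were called higher for 18 and lower for 3 of 31, for 13 and 11 with the length offset and for 11 and 10 with both. Spliceosome genes were called higher for 22 and lower for 6 of 36, then for 22 and 10 and for 14 and 11, and the 6 lower became 3 without siControl replicate 1.

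**Figure D5:**
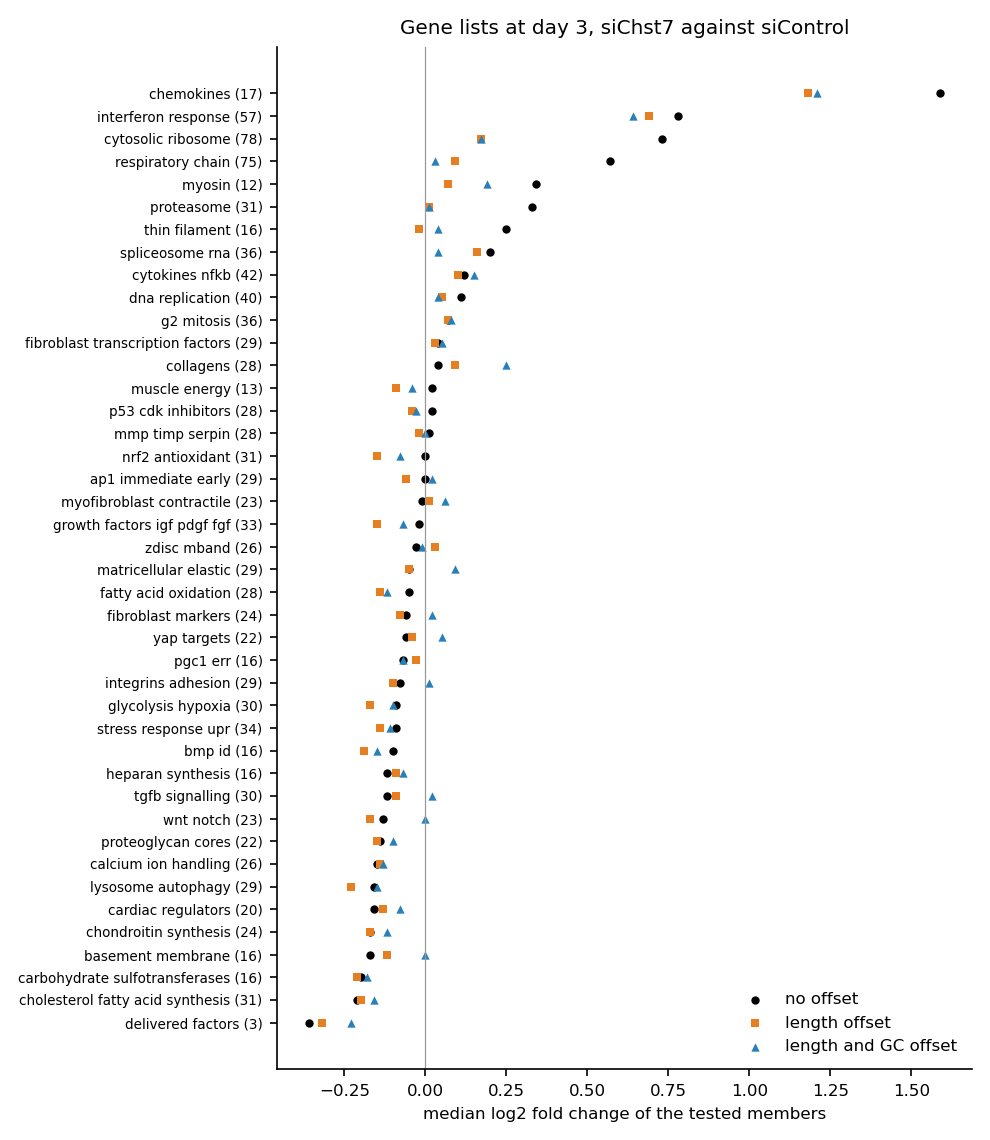
Median log2 fold change of the tested members of 42 gene lists, siChst7 against siControl at day 3, without offset (black), with the length offset (orange) and with the length and GC offset (blue); numbers of tested members are in brackets. Chemokines and interferon genes lead under each fit, the ribosome, respiratory chain and proteasome medians move toward 0, and the collagen median moves up to 0.25.

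Cardiac genes did not move as 1 group. The natriuretic peptide genes, which heart muscle expresses early and under load, rose. Nppb stood at 56.5, 44.3 and 67.2 CPM against 20.0, 22.6 and 19.9 CPM in siControl (1.42 ± 0.12, edgeR adjusted p = 1.52e-08), and Nppa at 9.67, 8.57 and 10.7 CPM against 3.25, 3.84 and 3.49 CPM (1.44 ± 0.16, adjusted p = 6.58e-07). With both offsets 0.88 and 1.09 were left. Before induction both were lower in siChst7: their log2 fold changes were −1.34 and −1.18 at day 0 and 0.43 at day 1 for each, the last not called for Nppa.

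Sarcomere genes were called in small numbers. Of 16 thin filament genes 4 were called higher and 0 lower, close to the 23.1% of all genes called higher, and the length offset left 2 and 1 and both offsets 3 and 1 (medians 0.25, −0.02 and 0.04). Of 12 myosin genes 5 were called higher and 0 lower, 2 and 0 with the length offset and 4 and 0 with both (medians 0.34, 0.07 and 0.19). The 5 became 3 without siChst7 replicate 1 or replicate 3. Actc1, cardiac actin, stood at 214, 152 and 231 CPM against 109, 95 and 111 CPM (0.92 ± 0.12, edgeR adjusted p = 2.61e-06), and Tnnc1, cardiac troponin C, at 504, 363 and 612 CPM against 235, 234 and 245 CPM (1.05 ± 0.11, adjusted p = 2.79e-07). Ttn, the giant spring protein of the sarcomere and the longest of these genes, rose from 25.4, 20.6 and 24.1 CPM to 45.3, 35.2 and 41.4 CPM (0.80 ± 0.10, adjusted p = 2.68e-06), and Myh6, whose promoter drives the line's reporter, from 1.47, 1.34 and 1.47 CPM to 2.44, 2.32 and 2.77 CPM (0.81 ± 0.18, adjusted p = 0.000941). With both offsets Actc1 kept 0.80, Ttn 0.69 and Myh6 1.03. Past 2-fold, where Tnnc1 lay without offset, 1 of 16 thin filament genes was called higher. With the length offset, and with both, 0 of the 16 were. The calls of Tnnt2 (0.26 ± 0.07), Tnnc2 and Myl4 were lost with both offsets, and Mybpc3 and Tpm1 were not called in any of the 3 fits.

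Other heart genes were called in both directions. Of 26 genes of calcium and ion handling 4 were called higher and 10 lower, among them Gja1, the gap junction protein connexin 43, at 109, 112 and 102 CPM against 150, 149 and 146 CPM (−0.46 ± 0.04, edgeR adjusted p = 1.2e-07). Hcn4, the pacemaker channel, was lower by 1.09 ± 0.22 at 2.11 to 2.93 CPM against 4.56 to 5.69 CPM. The counts of this list were 4 and 9 with the length offset and 5 and 9 with both. Z-disc and M-band genes were called higher for 6 and lower for 6 of 26, for 3 and 6 with the length offset and for 7 and 5 with both. Without offset this was close to the 23.1% higher and 21.6% lower of all genes. Of 20 cardiac regulators, the delivered factors not counted, 4 were called higher and 7 lower, 5 and 6 with the length offset and 6 and 4 with both. The 7 lower became 3 without siChst7 replicate 1 or without siControl replicate 1. Of the 8 cardiomyocyte markers 7 were tested and 5 were called higher, their sum being 950 to 1150 CPM against 790 to 859 CPM, and Actn2 was at 0 in 4 of the 6 libraries.

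Fibroblast genes showed no common direction. Of 24 fibroblast surface and lineage markers 6 were called higher and 6 lower, and of 29 fibroblast transcription factors 4 and 5. Of all genes, 23.1% were called higher and 21.6% lower, so that the markers lay close to these shares and the factors below them. With both offsets the counts were 7 and 4, and 4 and 5, beside 17.7% higher and 22.4% lower of all genes. The 4 higher factors became 2 without siChst7 replicate 1 or 3 or siControl replicate 2, and the 5 lower became 3 without siControl replicate 1. Pdgfra, the growth factor receptor of mesenchymal cells, was lower at 33.8, 36.8 and 37.0 CPM against 43.4, 44.0 and 43.9 CPM (−0.29 ± 0.05, edgeR adjusted p = 0.000205). Twist1, a mesenchymal transcription factor, was higher at 51.1, 45 and 49.8 CPM against 39.2, 34.3 and 37.1 CPM (0.40 ± 0.06, adjusted p = 1.38e-05), and Prrx1 and Zeb1 were not called. The contractile myofibroblast genes were called higher for 7 and lower for 6 of 23 at day 3 (9 and 6 with the length offset, 8 and 5 with both), whereas at day 0 they had been called higher for 1 and lower for 15. The median of this list was −0.49 at day 0 and −0.01 at day 3, near 0 and not above it. At day 3, of 5 members of 1000 to 2000 bases 4 were called higher and 1 lower. Of 10 members of 4000 to 8000 bases 0 were called higher and 3 lower. Tagln, a smooth muscle actin-binding protein, moved further than the list median. It stood at 95.1, 95.7 and 86.4 CPM in siChst7 against 219, 220 and 240 CPM in siControl at day 0. At day 3 Tagln stood at 446, 431 and 523 CPM against 255, 244 and 248 CPM. The change in its effect was 2.20 on the log2 scale (edgeR interaction term, adjusted p = 7.48e-14).

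Several abundant matrix genes were lower, though their lists held genes called in both directions. Fn1 fell by 0.47 on the log2 scale (−0.47 ± 0.05, edgeR adjusted p = 1.28e-07), and 0.26 of that fall was left with both offsets. Sparc, a collagen-binding matrix protein, stood at 1750, 1920 and 1780 CPM against 2450, 2340 and 2520 CPM (−0.42 ± 0.04, adjusted p = 7.95e-08; −0.37 with both offsets). Nid2, a basement membrane linker, fell from 4270, 4130 and 4250 CPM to 2950, 3230 and 2990 CPM (−0.46 ± 0.05, adjusted p = 2.09e-07; −0.28 with both offsets), and Timp2 and Mmp14, an inhibitor and a protease of matrix turnover, by 0.52 and 0.40. The siChst7 and siControl libraries did not overlap for any of these genes. As groups, 8 of 16 basement membrane genes were called lower and 1 higher, 8 and 2 with the length offset and 5 and 7 with both. Of 29 matricellular and elastic fibre genes 10 were called lower and 6 higher, 9 and 8 with the length offset and with both. Without offset, 2 of them rose and 0 fell past 2-fold. Of 28 matrix protease and inhibitor genes 11 were called lower and 7 higher, 10 and 5 with the length offset and with both. The 7 higher became 3 without siChst7 replicate 3. Of 29 integrin and adhesion genes 12 were called lower and 0 higher, 11 and 2 with the length offset and 8 and 1 with both. These genes were long, with a median of 5041 bases. The 18 of 4000 to 8000 bases had a median log2 fold change of −0.07, beside −0.08 for all genes of that length. With both offsets the median of the list was 0.01, and 22.4% of all genes were called lower.

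Collagens were called higher more often than lower. Of 28 collagen genes 9 were called higher and 2 lower, 10 and 2 with the length offset and 17 and 1 with both, these genes being long and rich in GC (median 6449 bases and 55.4% GC). Col5a2 stood at 5150, 5000 and 5090 CPM against 4080, 3850 and 4080 CPM (0.34 ± 0.04, edgeR adjusted p = 6.8e-07), and Col27a1 at 5.05, 4.66 and 5.54 CPM against 2.46, 2.12 and 1.86 CPM (1.25 ± 0.17, adjusted p = 6.58e-06). Col1a1, the main fibrillar collagen, was lower without offset (−0.20 ± 0.06) and at 0.03 with both offsets. Genes of TGF-beta signalling were called higher for 7 and lower for 13 of 30, for 8 and 12 with the length offset and for 10 and 9 with both. Of all genes, 23.1% were called higher and 21.6% lower without offset, and 17.7% and 22.4% with both.

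Among the genes of sulfation and of the sugar chains, more were called lower than higher. Of 16 carbohydrate sulfotransferase and sulfate donor genes 7 were called lower and 1 higher, Chst7 included, with a median of −0.20, beside 21.6% of all genes called lower. The counts were 7 and 0 with the length offset and 7 and 1 with both. Chst12 and Chst11, which also sulfate chondroitin, fell from 55.1, 53.2 and 56.0 CPM to 37.8, 40.9 and 37.2 CPM (−0.50 ± 0.06, edgeR adjusted p = 7.31e-07) and from 70.8, 68.6 and 75.2 CPM to 54.6, 56.9 and 52.8 CPM (−0.38 ± 0.05, adjusted p = 1.15e-06). Papss2, which makes the sulfate donor, fell by 0.36. Enzymes that build and break down chondroitin were called lower for 12 and higher for 2 of 24, among them the lysosomal enzyme Hexa (−0.42 ± 0.05), for 13 and 0 with the length offset and for 12 and 2 with both. Heparan sulfate enzymes were called lower for 7 and higher for 1 of 16, with Ext1, a heparan polymerase, at −0.41 ± 0.04 and Hs6st2 higher at 0.29 ± 0.04. These counts were 4 and 1 with the length offset and 3 and 3 with both, and the 7 lower became 3 without siChst7 replicate 1 and 4 without any 1 of the siControl libraries. Proteoglycan core proteins were called lower for 7 and higher for 2 of 22, and for 6 and 3 with both offsets.

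Lipid synthesis genes were mostly lower. Of 31 cholesterol and fatty acid synthesis genes 19 were called lower and 3 higher in edgeR, with a median of −0.21. The counts were 20 and 2 with the length offset (median −0.20) and 20 and 1 with both (median −0.16). Srebf2, the transcription factor that drives cholesterol synthesis, stood at 141, 153 and 129 CPM against 173, 179 and 174 CPM (−0.32 ± 0.05, adjusted p = 2.01e-05). Acly, which makes acetyl-CoA in the cytosol, stood at 192, 216 and 189 CPM against 249, 244 and 243 CPM (−0.30 ± 0.05). At day 0 the list had been called higher for 12 and lower for 0, and the change in effect from day 0 was called downward for 20 and upward for 1. Lysosome and autophagy genes followed a similar course, with 16 lower and 5 higher of 29 at day 3 (18 and 2 with the length offset, 16 and 2 with both) against 15 higher and 0 lower at day 0.

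Several other metabolic and stress lists, but not all, were called lower more often than higher. Of all genes, 23.1% were called higher and 21.6% lower without offset. All genes leaned lower in the other fits, with 18.6% higher and 26.0% lower with the length offset and 17.7% and 22.4% with both. Fatty acid oxidation genes were called lower for 10 and higher for 6 of 28, for 14 and 3 with the length offset and for 12 and 2 with both. The 6 higher became 10 without siChst7 replicate 2, 3 without siChst7 replicate 1 or siControl replicate 2, and 2 without siChst7 replicate 3. Of this list, the thiolase Acaa2 stood at 99.7, 94.9 and 96.2 CPM against 141, 135 and 137 CPM (−0.51 ± 0.05, edgeR adjusted p = 1.55e-07). Glycolysis and hypoxia genes were called lower for 12 and higher for 3 of 30, for 15 and 2 with the length offset and for 13 and 5 with both. Stress and unfolded protein response genes were called lower for 14 and higher for 4 of 34, then for 19 and 3 and for 18 and 2, among them Calr, a chaperone of the endoplasmic reticulum (−0.35 ± 0.04). Muscle energy genes went the other way without offset, called higher for 5 and lower for 1 of 13. They were called higher for 2 and lower for 3 with the length offset, and for 2 and 2 with both. Antioxidant genes were called higher for 9 and lower for 9 of 31, then for 5 and 16 and for 4 and 14. Cell cycle genes were called higher more often than lower: 17 of 40 DNA replication genes were called higher and 8 lower, 16 and 8 with the length offset and 16 and 4 with both. Of 36 genes of mitosis 17 were called higher and 3 lower, 13 and 5 with the length offset and 14 and 4 with both. The 8 lower replication genes became 4 without siChst7 replicate 1, 5 without siControl replicate 2 and 12 without siChst7 replicate 2. The 17 mitosis genes became 11 without siChst7 replicate 3. Cdk1, the mitotic kinase, stood at 361, 289 and 402 CPM against 236, 239 and 242 CPM (0.55 ± 0.08, adjusted p = 6.76e-06), whereas Mki67 and Top2a were not called.

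Among genes at a mean of at least 5 CPM, the largest rises outside the interferon and chemokine lists were those of Rab26os, Ces1g, Spp1, Snord104, Snhg3, Krt10, Rpl22l1 and Ctsw. Spp1, which encodes osteopontin, stood at 114, 64.3 and 112 CPM against 29.3, 25.9 and 27.5 CPM (1.81 ± 0.14, edgeR adjusted p = 6.58e-09; 1.5 with both offsets). Like Ccl2, it was far more abundant before induction, at 576, 580 and 583 CPM in siControl at day 0, and it was higher in siChst7 on each day. Ces1g, a carboxylesterase, rose from 3.22, 2.08 and 2.71 CPM to 9.29, 7.74 and 12.8 CPM (1.90 ± 0.19; 1.82 with both offsets). Krt10, a keratin, rose by 1.65 ± 0.17 and kept 1.66 with both offsets. The rises of the short RNAs Snhg3 (437 bases) and Rpl22l1 (477 bases), 1.66 and 1.57, were 0.66 and 0.62 with both offsets. The counts of Rab26os, named for lying opposite another gene, and of Snord104, a small nucleolar RNA, are uncertain without a known strand setting.

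Next to Chst7, the largest falls were those of Spon2, Rasgef1b, Cldn23, Plxna4, Tenm4, Wbscr17, Dab2, Clic5, Itpk1, Cobl and Arhgap44. Dab2, an adaptor of endocytosis, was the most abundant of them, at 49.0, 53 and 48.8 CPM against 90.4, 86.9 and 92.1 CPM (−0.83 ± 0.04, edgeR adjusted p = 4.3e-11; −0.83 with both offsets). Tenm4, a teneurin adhesion protein, stood at 14.8, 13.9 and 14.3 CPM against 27.9, 26.0 and 29.0 CPM (−0.95 ± 0.09; −0.77 with both offsets). Cldn23, a claudin, stood at 5.66, 6.07 and 5.12 CPM against 13.2, 10.5 and 11.5 CPM (−1.05 ± 0.14). In these 3 genes the siChst7 libraries lay close together, all below siControl.

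Finally, the day 3 difference was set beside the first day of induction in siControl, a comparison that uses no day 3 library. Of the 979 genes (7.09% of those tested) that rose at least 2-fold in siControl from day 0 to day 1, 29.9% were called lower and 13.7% higher in siChst7 at day 3, with a median of −0.08. Of the 935 genes (6.77%) that fell at least 2-fold, 25.9% were called higher and 10.6% lower, with a median of 0.16. The remaining 11888 genes were called higher for 23.6% and lower for 21.8%. With both offsets the shares were 29.0% lower and 10.7% higher for the first set and 24.6% higher and 10.1% lower for the second. These counts describe the sets, which were not tested against each other.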

How the data were processed

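Gene counts were deposited as 1 table of 18 libraries from poly-A RNA, with a length for each gene, and no column was left unmapped. HISAT2, Subread, featureCounts and DESeq2 and the build mm10 are named in the submitters' processing notes; for versions, strand setting and multi-mapped reads the sources used here give no value, so that near-identical, overlapping and antisense genes are uncertain. Deposited counts were used as they stand, apart from 25 rows whose symbols had become dates, which have no gene name and stay unnamed here.

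Counts were filtered with filterByExpr, scaled by TMM and fitted in edgeR 4.0.16 (R 4.3.3, limma 3.58.1) with 1 term for each of the 6 groups of 3 libraries. Each comparison used edgeR's quasi-likelihood F-test with Benjamini-Hochberg adjustment over all 13802 genes, called at 0.05. The SE was taken from the F statistic and so rests on the spread over all 18 libraries, and CPM are given per library. The script was tested on simulated data. Replicate numbers did not pair the libraries. Offsets were lowess curves (span 0.3) of each library's deviations on length and, added after seeing the data, on the GC content of GENCODE M21 transcripts (13456 genes, 97.49%). Alternatives were other scalings, filters, DESeq2 1.42.0, a replicate block and leaving out each library.

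The gene lists were chosen with earlier results of these data known. Genes were named by a rule: the target and delivered factors; the 12 largest changes each way at a mean of at least 5 CPM with groups apart; up to 4 called and 2 uncalled genes per list; 4 each way per interaction; and 4 abundant genes of the shortest and longest bin. Genes outside it, among them B2m, Ifit1, Gbp3, Tap1, Ifi44, H2-D1, Il6, Col1a1, Dcn, Cdh5, Oas1a, Herc6, Parp14, Parp9, Ifit2, Ccl9, Cxcl1, Cxcl16, Cx3cl1 and the interferon signalling genes, were chosen after their values were seen. RefSeq symbols matched 23591 of 24514 genes (96.2%).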

Additional observations from a re-analysis of the deposited data

Results flagged for a closer look

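The effect of siChst7 differed between days for many genes by edgeR's interaction test at an adjusted p below 0.05: 5356 genes between day 3 and day 0, and 3926 between day 3 and day 1. All values that follow are differences between 2 such effects on the log2 scale. Against day 0, the effect at day 3 was higher by 2.90 in Jph2, which ties the plasma membrane to the calcium store, by 2.76 in Nppb, by 2.69 in Ccdc68 and by 2.66 in Defb48. It was lower in Mybph (−4.50), Afap1l2 (−2.76), Plxna4 (−2.46) and Aldh1l1 (−2.25). Against day 1, it was higher by 2.10 in Chst7, by 1.49 in Wbp5, by 1.46 in Actg2, a smooth muscle actin, and by 1.46 in Snhg3. It was lower in Clu (−1.26), Acacb (−1.24), Adamtsl2 (−1.19) and Alcam (−1.18).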

How the results depend on the processing

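The count of called genes stayed within 1.5 times of 6165 in the alternatives run, from 4683 with only the 6 libraries in the fit to 7124 without siChst7 replicate 2, and Chst7 stayed called in each. Counts past 2-fold moved. Against 395 higher genes there were 223 with the stricter filter, 195 with the length offset, 187 with that offset and the replicate block, and 159 with the length and GC offset. Leaving out 1 library gave 216 to 593 higher genes. Against 25 lower genes there were 7 with the stricter filter and 40 with the length offset. The rank correlation with length was −0.24 without a filter, and the shortest of 5 equal bins had a median of 0.30. With the length offset Slc25a4 went from 0.22 to −0.09 and Bax from 0.28 to −0.15, also −0.15 with the block. The cause of these moves was not tested.

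Replicate numbers did not pair libraries (same-number correlations 0.013, 0.001 and 0.023, and not every library correlated best with its own number). The replicate block gave 6024 called genes, 5975 of them shared with the fit without it, and changed the call of none of the 280 named genes. Of these genes the length and GC offset left 234 with the same call, 21 lost theirs and 25 gained one. Depth of at least 30590742 counts per library left small differences callable, while genes under the filter, among them the interferon ligands, were not tested.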
